A study of Homo sapiens with 12 samples.

Results

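The Jun, Fos and Maf genes of the AP-1 group were followed in HEK293T cells that expressed a sarcoma fusion protein or an activated form of YAP. The 9 genes JUN, JUNB, JUND, FOS, FOSB, FOSL1, FOSL2, BATF3 and MAF were chosen by name out of 58735 genes in the expression tables, and each name was found once. HEK293T is a human embryonic kidney line, labelled wild type, that carries adenovirus sequence and the SV40 large T antigen. All 4 groups were transiently transfected. The plasmids carried VGLL2-NCOA2 in the first group, TEAD1-NCOA2 in the next and YAP5SA in the next, the control group received the empty vector pcDNA3.1, and 3 RNA libraries were sequenced in each. VGLL2-NCOA2 and TEAD1-NCOA2 are fusions found in spindle cell rhabdomyosarcoma, and YAP5SA is a YAP mutant that lacks the sites through which LATS kinases inhibit it. The proteins were made from plasmids in cells of kidney origin, the promoter that drove them in these libraries is not stated, and the groups stand for ectopic expression in 1 line and not for a tumor. The comparisons addressed whether the genes that encode AP-1 were expressed differently under each plasmid.

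AP-1 is a dimer of basic leucine zipper (bZIP) proteins that binds a short palindromic DNA site and connects growth factor and stress signals to transcription. Jun proteins pair with each other or with Fos proteins, whereas Fos proteins need a Jun partner. BATF3 is a small bZIP protein that pairs with Jun, and MAF is a large Maf protein that binds an extended AP-1 site. Several of these genes are immediate early genes, which serum and growth factors induce within minutes, and AP-1 binds many enhancers together with TEAD and YAP.

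Each transfected gene was high in the group labelled for it. VGLL2 averaged 257 ± 11.4 FPKM in VGLL2-NCOA2 cells and 1.41 ± 0.29 FPKM in control cells, TEAD1 averaged 52.9 ± 4.53 FPKM in TEAD1-NCOA2 cells and 3.23 ± 0.28 FPKM in control cells, and YAP1 averaged 4354 ± 1264 FPKM in YAP5SA cells and 5.33 ± 1.06 FPKM in control cells (SD, n = 3 each). FPKM is by name the fragment count scaled by gene length and library size, and the values are used as the authors deposited them. Per FPKM and kilobase, control replicate 2 held 12.5 fragments, with 15105367 fragments assigned to genes. TEAD1-NCOA2 replicate 1 held 15.6, with 14140996 assigned. The count of assigned fragments alone thus did not set the scale. The 9 libraries in which whole fragments could be recovered held 14140996 to 15559838 fragments assigned to genes, and the depth of the YAP5SA libraries is unknown. YAP5SA replicate 3 and control replicate 3 stood apart from their groups. Whether these 2 libraries shared a batch was not tested, nor was which YAP5SA library carried the NCOA2 spread. The median absolute difference in log2(FPKM + 1) over the 15954 tested genes was 0.25 and 0.23 between YAP5SA replicate 3 and the other YAP5SA libraries, which differed by 0.12 from each other, and 0.23 for both pairs with control replicate 3, against 0.15 between the other control libraries. The pairs within the fusion groups lay at 0.10 to 0.15. Results were also computed without these 2 libraries and with each library left out in turn. The share of FPKM times gene length that fell on mitochondrial genes was 6.18% to 6.56% in VGLL2-NCOA2 libraries and 6.25% to 9.83% in TEAD1-NCOA2 libraries. It was 3.601% to 4.64% in YAP5SA libraries and 9.97% to 12.6% in control libraries. Its part in the results below was not tested. In bulk RNA, fewer cells with a transcript and less of it per cell cannot be told apart. Of the cell type markers examined, COL1A1 was the 1 of 6 fibroblast genes to reach 1 FPKM in any library, and COL1A2 was listed at 0 in all 12. The 6 fibroblast markers summed to 4.58 to 5.62 FPKM in VGLL2-NCOA2 libraries, 1.15 to 1.51 in TEAD1-NCOA2 libraries, 2.87 to 3.54 in YAP5SA libraries and 6.95 to 10.9 in control libraries, and the part of such cells was not tested. The 4 endothelial markers stayed under 1 FPKM in every library. The 6 leukocyte markers summed to 1.96 to 2.73 FPKM in VGLL2-NCOA2 libraries, 0.971 to 1.19 in TEAD1-NCOA2 libraries, 2.26 to 2.81 in YAP5SA libraries and 1.12 to 1.51 in control libraries. The 6 genes taken as markers of HEK293T cells were NEFL, NEFM, VIM, KRT8, KRT18 and PAX2. They summed to 135 FPKM in VGLL2-NCOA2 libraries, 111 to 135 in TEAD1-NCOA2 libraries and 50.5 to 88.5 in YAP5SA libraries, against 290.4 to 363 in control libraries. Not every marker followed the sum. KRT8 averaged 22.1 FPKM in VGLL2-NCOA2 cells, 5.43 in TEAD1-NCOA2 cells and 12.7 in YAP5SA cells, against 13.3 in control cells. VIM is also counted among the AP-1 target genes below. Whether the sum went with the results was not tested.

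Most of the AP-1 genes were lower under all 3 plasmids. JUN, JUND and MAF fell in VGLL2-NCOA2, TEAD1-NCOA2 and YAP5SA cells relative to control, and JUNB and BATF3 fell in TEAD1-NCOA2 cells. FOSL2 was the 1 tested member that was higher, by less than the threshold for a call. A gene was called when limma's adjusted p (Benjamini-Hochberg, over 15954 genes) was under 0.05 and the difference of log2(FPKM + 1) was over 1 in size. FOSB, which reached 1 FPKM in 1 library, did not pass the filter on low values and was not tested.

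Of 8 tested members, 3 were called lower and 0 higher in VGLL2-NCOA2 cells, where 5.03% of all tested genes were called lower and 6.30% higher. In TEAD1-NCOA2 cells 5 were called lower and 0 higher, against 6.51% and 2.89% of all tested genes. In YAP5SA cells 3 were called lower and 0 higher, against 10.0% and 10.4% of all tested genes. By the adjusted p alone, 7 members were lower and 1 was higher in each comparison with control. The same rule took 25.0% of all genes as lower and 28.9% as higher in VGLL2-NCOA2 cells, 27.9% and 20.6% in TEAD1-NCOA2 cells, and 30.2% and 32.9% in YAP5SA cells. The median log2 difference of the 8 members was -0.84 in VGLL2-NCOA2 cells, -1.18 in TEAD1-NCOA2 cells and -0.89 in YAP5SA cells, beside medians over all tested genes of 0.01, -0.09 and 0.03. At an unadjusted limma p under 0.05 the counts were also 7 lower and 1 higher in each. The share of all genes at an unadjusted p was not counted in any comparison. Limma-voom on recovered fragments called FOSL2 higher under both fusions. The 3 comparisons share the control libraries, so a high or low control value enters all of them.

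**Figure D1:**
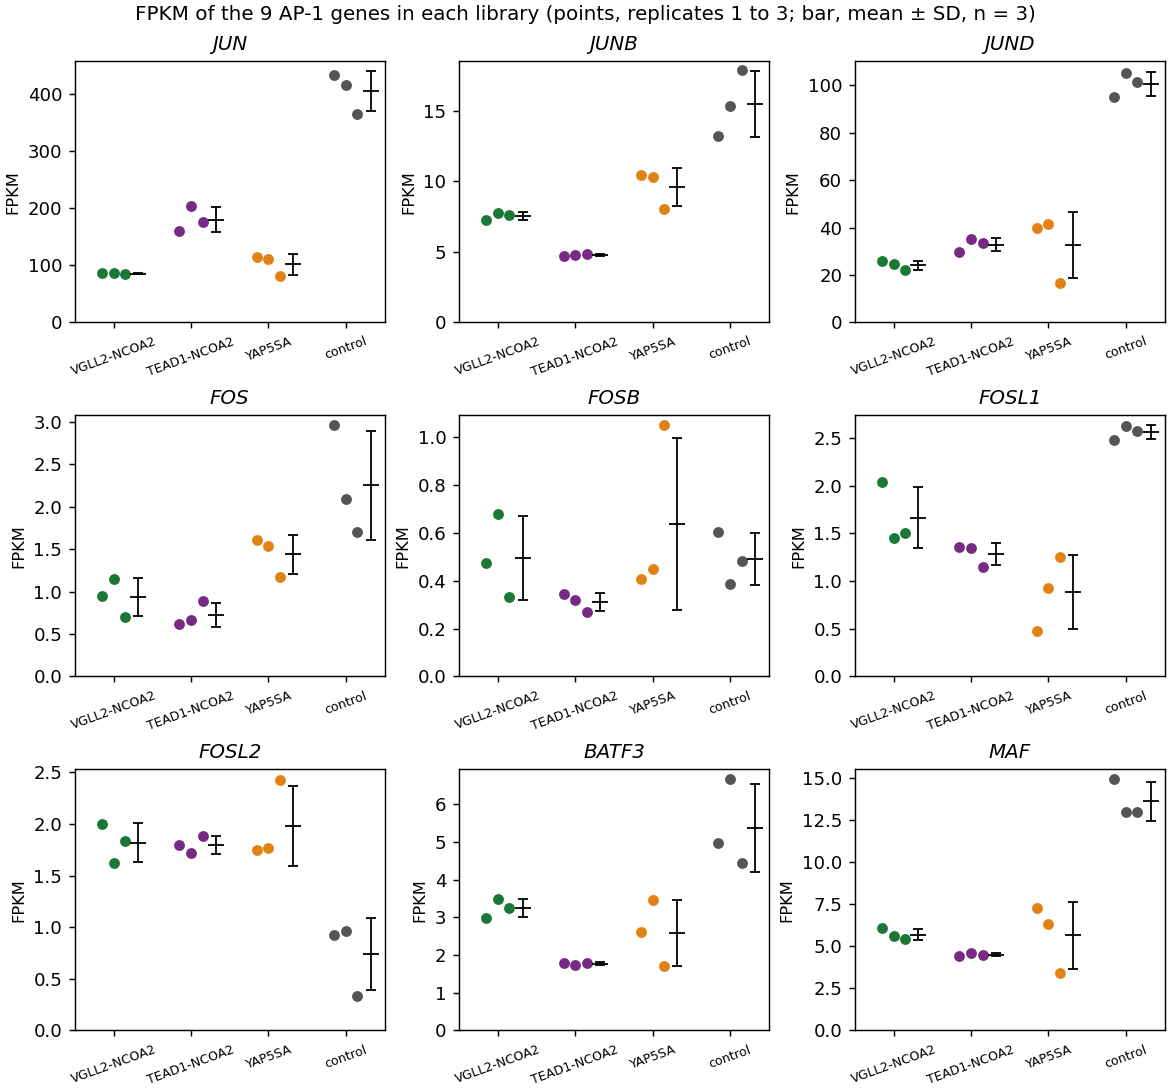
FPKM (vertical axes, linear from 0) of the 9 AP-1 genes in the libraries of the VGLL2-NCOA2, TEAD1-NCOA2, YAP5SA and control groups. Points are libraries and the bar beside them is the mean ± SD (n = 3). JUN lies between 80.9 and 203 FPKM in the plasmid groups and at 366 FPKM or more in control, and FOSL2 is the panel in which every control point lies below every other point.

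**Figure D2:**
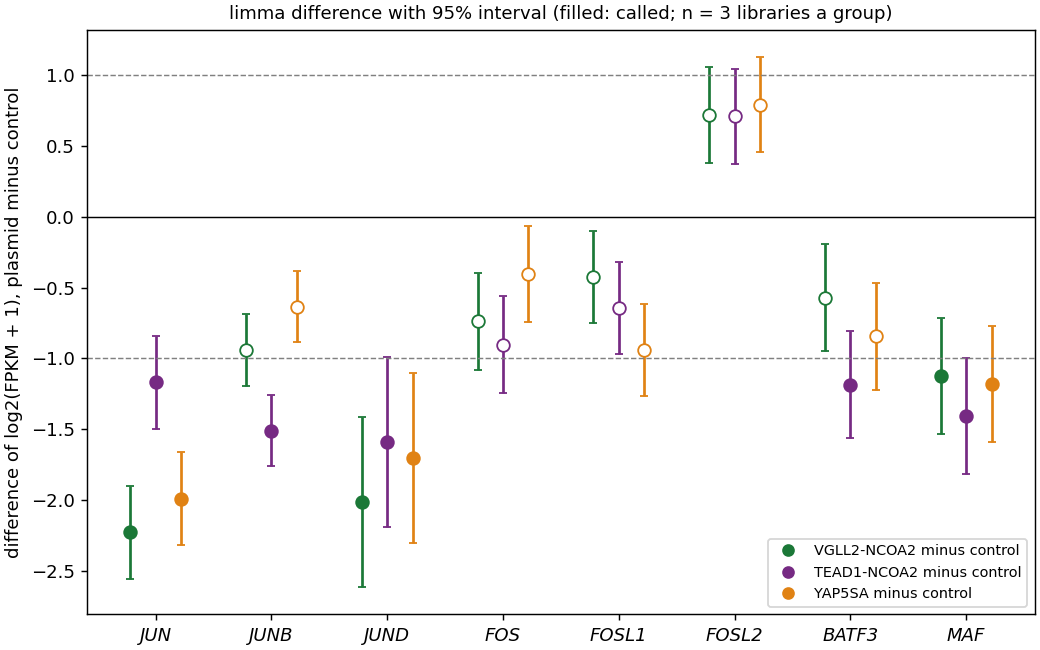
Difference of log2(FPKM + 1), plasmid minus control, for the 8 tested AP-1 genes with its 95% interval from limma, coloured by plasmid. Filled points were called and dashed lines mark a difference of 1 in either direction. JUN, JUND and MAF have 3 filled points below 0, and FOSL2 has 3 open points above 0.

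The upstream sequences of the 3 members that fell under every plasmid are shown because JUN's own promoter carries known sites for Jun and ATF proteins, and because short AP-1-type sites can be read in them directly. The windows are the 250 bases before the RefSeq start of each gene on GRCh38.p14, read 5′ to 3′ on the gene's strand, which are chr1:58784048-58784297 (minus strand) for JUN, chr19:18281623-18281872 (minus strand) for JUND and chr16:79600738-79600987 (minus strand) for MAF. Capitals mark matches to the motifs given after the sequences.
JUN: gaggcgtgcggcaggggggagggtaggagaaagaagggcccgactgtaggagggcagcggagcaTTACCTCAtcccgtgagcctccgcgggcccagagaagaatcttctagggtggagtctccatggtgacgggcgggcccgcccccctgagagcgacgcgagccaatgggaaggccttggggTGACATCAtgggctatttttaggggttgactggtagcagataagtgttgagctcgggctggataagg
JUND: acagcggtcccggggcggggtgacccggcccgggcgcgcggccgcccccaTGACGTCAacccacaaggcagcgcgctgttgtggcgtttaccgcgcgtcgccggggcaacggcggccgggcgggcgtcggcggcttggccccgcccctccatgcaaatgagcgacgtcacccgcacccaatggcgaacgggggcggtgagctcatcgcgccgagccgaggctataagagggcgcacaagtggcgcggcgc
MAF: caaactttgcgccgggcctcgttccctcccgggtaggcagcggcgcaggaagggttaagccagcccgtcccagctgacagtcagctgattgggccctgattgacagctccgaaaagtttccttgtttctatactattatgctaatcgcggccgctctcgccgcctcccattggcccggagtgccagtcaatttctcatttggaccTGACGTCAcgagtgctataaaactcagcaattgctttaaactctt

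The JUN window held TTACCTCA at bases 186 to 179 before the start and TGACATCA at bases 67 to 60, the distal and proximal sites known to be bound by Jun and ATF2 dimers. The JUND window held the cAMP response element TGACGTCA at bases 200 to 193, and the MAF window held the same letters at bases 45 to 38. On either strand, TGACATCA occurred in 2.37%, TTACCTCA in 0.644% and TGACGTCA in 1.65% of 35116 RefSeq windows of this length. The AP-1 site TGACTCA (4.20% of windows), the TEAD site GGAATG (11.9%) and the CArG box bound by SRF (1.16%) were also searched on both strands, and no match was found in the 7 members' windows, which says only that these letters are not in these bases. The letters of the JUN sites were added to the search after the JUN window had been read. No window was used for FOSL1 and BATF3.

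JUN, the most abundant of the 9 genes, encodes the Jun protein that JNK activates. It lies on chromosome 1 at 58780788 to 58784327 (GRCh38, GENCODE 29, minus strand, ENSG00000177606). It had 87.1, 85.5 and 83.9 FPKM in VGLL2-NCOA2 libraries, 161, 203 and 176 FPKM in TEAD1-NCOA2 libraries and 114, 111 and 80.9 FPKM in YAP5SA libraries, against 433, 416 and 366 FPKM in control libraries. No plasmid library overlapped the control range. The TEAD1-NCOA2 libraries all lay above those of the other plasmids. Counted as fragments, 4808 to 4969 per VGLL2-NCOA2 library and 8888 to 11305 per TEAD1-NCOA2 library fell on JUN, against 17364 to 20628 per control library. Among all tested genes of its library JUN ranked 278, 292 and 300 in VGLL2-NCOA2 cells, 145, 121 and 139 in TEAD1-NCOA2 cells and 193, 216 and 155 in YAP5SA cells, against 80, 98 and 79 in control cells. The mean was 0.211 times control in VGLL2-NCOA2 cells, a log2 difference of -2.23 ± 0.15 (SE, limma adjusted p = 7.7e-06). It was 0.445 times control in TEAD1-NCOA2 cells (-1.17 ± 0.15, limma adjusted p = 0.000131) and 0.252 times control in YAP5SA cells (-1.99 ± 0.15, limma adjusted p = 2.5e-06).

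JUND encodes the Jun protein that is present in most resting cells and restrains growth in several settings. It lies on chromosome 19 at 18279760 to 18281622 (minus strand). JUND had 25.8, 24.6 and 22.1 FPKM in VGLL2-NCOA2 libraries, 29.8, 35.4 and 33.3 FPKM in TEAD1-NCOA2 libraries and 39.9, 41.4 and 16.5 FPKM in YAP5SA libraries, against 94.9, 105 and 102 FPKM in control libraries. The control libraries lay far above the rest, and YAP5SA replicate 3 lay far below the other YAP5SA libraries. The log2 difference was -2.01 ± 0.27 in VGLL2-NCOA2 cells (SE, limma adjusted p = 0.000158), -1.59 ± 0.27 in TEAD1-NCOA2 cells (limma adjusted p = 0.00081) and -1.70 ± 0.27 in YAP5SA cells (limma adjusted p = 0.000302). Without YAP5SA replicate 3 and control replicate 3 the YAP5SA difference was -1.28 and was still called.

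JUNB, an immediate early gene whose protein can oppose JUN, lies on chromosome 19 at 12791496 to 12793315 (plus strand). It had 7.24, 7.77 and 7.60 FPKM in VGLL2-NCOA2 libraries, 4.67, 4.75 and 4.81 FPKM in TEAD1-NCOA2 libraries and 10.4, 10.3 and 8.07 FPKM in YAP5SA libraries, against 13.2, 15.4 and 17.9 FPKM in control libraries. The 4 groups did not overlap, with TEAD1-NCOA2 at the bottom and control at the top. JUNB fell in TEAD1-NCOA2 cells by 1.51 on the log2 scale (SE 0.11, limma adjusted p = 6.3e-06). The differences of -0.94 ± 0.11 in VGLL2-NCOA2 cells (limma adjusted p = 8.3e-05) and -0.63 ± 0.11 in YAP5SA cells (limma adjusted p = 0.000638) did not reach a size of 1. Without control replicate 1 the VGLL2-NCOA2 difference was -1.04 and was called.

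MAF, the cellular counterpart of a viral oncogene and a regulator of lens, lymphocyte and kidney genes, lies on chromosome 16 at 79585843 to 79600714 (minus strand). It had 6.05, 5.58 and 5.44 FPKM in VGLL2-NCOA2 libraries, 4.45, 4.59 and 4.47 FPKM in TEAD1-NCOA2 libraries and 7.24, 6.31 and 3.42 FPKM in YAP5SA libraries, against 14.9, 12.9 and 12.9 FPKM in control libraries. All plasmid libraries lay below the control range, and the YAP5SA group was the widest. MAF was 0.418 times control in VGLL2-NCOA2 cells (log2 difference -1.12 ± 0.18, limma adjusted p = 0.000519), 0.331 times control in TEAD1-NCOA2 cells (-1.41 ± 0.18, limma adjusted p = 0.000158) and 0.416 times control in YAP5SA cells (-1.18 ± 0.18, limma adjusted p = 0.000261). Without YAP5SA replicate 3 the YAP5SA difference was -0.91, and without control replicate 3 as well it was -0.94, and neither was called.

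BATF3, a Jun partner best known from dendritic cells, lies on chromosome 1 at 212686418 to 212699985 (minus strand). It had 2.996, 3.48 and 3.25 FPKM in VGLL2-NCOA2 libraries, 1.79, 1.73 and 1.79 FPKM in TEAD1-NCOA2 libraries and 2.61, 3.45 and 1.70 FPKM in YAP5SA libraries, against 4.99, 6.68 and 4.45 FPKM in control libraries. Its level was low, with 74 to 81 fragments per TEAD1-NCOA2 library and 162 to 227 per control library. BATF3 fell in TEAD1-NCOA2 cells (log2 difference -1.19 ± 0.17, limma adjusted p = 0.000286). The differences of -0.57 ± 0.17 in VGLL2-NCOA2 cells (limma adjusted p = 0.0159) and -0.84 ± 0.17 in YAP5SA cells (limma adjusted p = 0.00144) were not called, although without YAP5SA replicate 2 the YAP5SA difference was -1.01 and was called.

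The Fos genes were all scarce. FOS, the immediate early gene that founded the family, lies on chromosome 14 at 75278774 to 75282230 (plus strand). It had 0.949, 1.15 and 0.706 FPKM in VGLL2-NCOA2 libraries, 0.612, 0.668 and 0.889 FPKM in TEAD1-NCOA2 libraries and 1.61, 1.53 and 1.17 FPKM in YAP5SA libraries, against 2.96, 2.10 and 1.70 FPKM in control libraries. The control libraries were highest, but their own spread was wide, and the fragments behind these values numbered 31 to 61 per fusion library and 74 to 129 per control library. The FOS mean was 0.414, 0.321 and 0.638 times control in VGLL2-NCOA2, TEAD1-NCOA2 and YAP5SA cells. The log2 difference was -0.74 ± 0.15 in VGLL2-NCOA2 cells (limma adjusted p = 0.00228), -0.90 ± 0.15 in TEAD1-NCOA2 cells (limma adjusted p = 0.000803) and -0.40 ± 0.15 in YAP5SA cells (limma adjusted p = 0.0403), and none was called. Without control replicate 3 the TEAD1-NCOA2 difference was -1.03 and was called. FOSB, on chromosome 19 at 45467995 to 45475179 (plus strand), stayed between 0.270 and 0.680 FPKM in the fusion libraries and between 0.388 and 0.602 FPKM in control libraries. Its highest value, 1.05 FPKM, was in YAP5SA replicate 3, against 0.409 and 0.449 FPKM in the other YAP5SA libraries.

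FOSL1 encodes FRA1, a Fos protein often raised in invasive carcinoma cells, and lies on chromosome 11 at 65892049 to 65900573 (minus strand). It had 2.03, 1.45 and 1.51 FPKM in VGLL2-NCOA2 libraries, 1.36, 1.35 and 1.14 FPKM in TEAD1-NCOA2 libraries and 0.475, 0.928 and 1.25 FPKM in YAP5SA libraries, against 2.48, 2.62 and 2.57 FPKM in control libraries. The 3 control values lay close together and above all others. The FOSL1 mean was 0.651, 0.501 and 0.346 times control in VGLL2-NCOA2, TEAD1-NCOA2 and YAP5SA cells. The log2 difference was -0.42 ± 0.15 in VGLL2-NCOA2 cells (limma adjusted p = 0.0315), -0.64 ± 0.15 in TEAD1-NCOA2 cells (limma adjusted p = 0.00455) and -0.94 ± 0.15 in YAP5SA cells (limma adjusted p = 0.000267), and none was called. Without YAP5SA replicate 3 the YAP5SA difference was -1.08 and was called.

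FOSL2 encodes FRA2 and lies on chromosome 2 at 28392448 to 28417312 (plus strand). It had 2.003, 1.62 and 1.84 FPKM in VGLL2-NCOA2 libraries, 1.80, 1.71 and 1.89 FPKM in TEAD1-NCOA2 libraries and 1.75, 1.77 and 2.43 FPKM in YAP5SA libraries, against 0.924, 0.960 and 0.333 FPKM in control libraries. Every plasmid library was above every control library, and control replicate 3 was the lowest of all. As fragments, 190 to 225 per fusion library stood against 89, 86 and 32 in the control libraries. The mean was 2.46, 2.43 and 2.68 times control in VGLL2-NCOA2, TEAD1-NCOA2 and YAP5SA cells. The log2(FPKM + 1) scale understates changes at levels this low, those of FOS, FOSL1 and BATF3 included. On it the FOSL2 difference was 0.72 ± 0.15 (limma adjusted p = 0.00256), 0.71 ± 0.15 (limma adjusted p = 0.00321) and 0.79 ± 0.15 (limma adjusted p = 0.00103). No FOSL2 difference was called. Without control replicate 3 and YAP5SA replicate 3 the differences were 0.54, 0.53 and 0.51.

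Summed over the family, Jun transcripts averaged 117 ± 3.33 FPKM in VGLL2-NCOA2 cells, 218 ± 24.2 FPKM in TEAD1-NCOA2 cells, 144 ± 33.5 FPKM in YAP5SA cells and 521 ± 31.0 FPKM in control cells (SD, n = 3 each). Fos transcripts summed to 4.91 ± 0.54, 4.12 ± 0.07, 4.94 ± 0.86 and 6.04 ± 0.94 FPKM in the same order of groups. Jun transcripts thus exceeded Fos transcripts 24.0 ± 1.96 times in VGLL2-NCOA2 cells, 52.9 ± 6.45 times in TEAD1-NCOA2 cells, 30.5 ± 11.1 times in YAP5SA cells and 87.1 ± 8.90 times in control cells, and every plasmid library had a lower ratio than every control library. Within the Jun sum, JUN made up 73.0% ± 0.76 in VGLL2-NCOA2 cells, 82.7% ± 0.71 in TEAD1-NCOA2 cells, 71.4% ± 4.58 in YAP5SA cells and 77.6% ± 2.32 in control cells. In the Fos sum, FOSL2 made up 37.2% ± 4.48 in VGLL2-NCOA2 cells, 43.7% ± 1.34 in TEAD1-NCOA2 cells and 40.1% ± 1.96 in YAP5SA cells, against 11.9% ± 4.78 in control cells. FOSL2 had the largest mean share of the 4 Fos genes under each plasmid, while FOSL1 at 43.1% ± 7.43 and FOS at 36.8% ± 4.92 led in control cells. These sums and shares are descriptions with no test, and shares within a library do not depend on its overall scale.

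**Figure D3:**
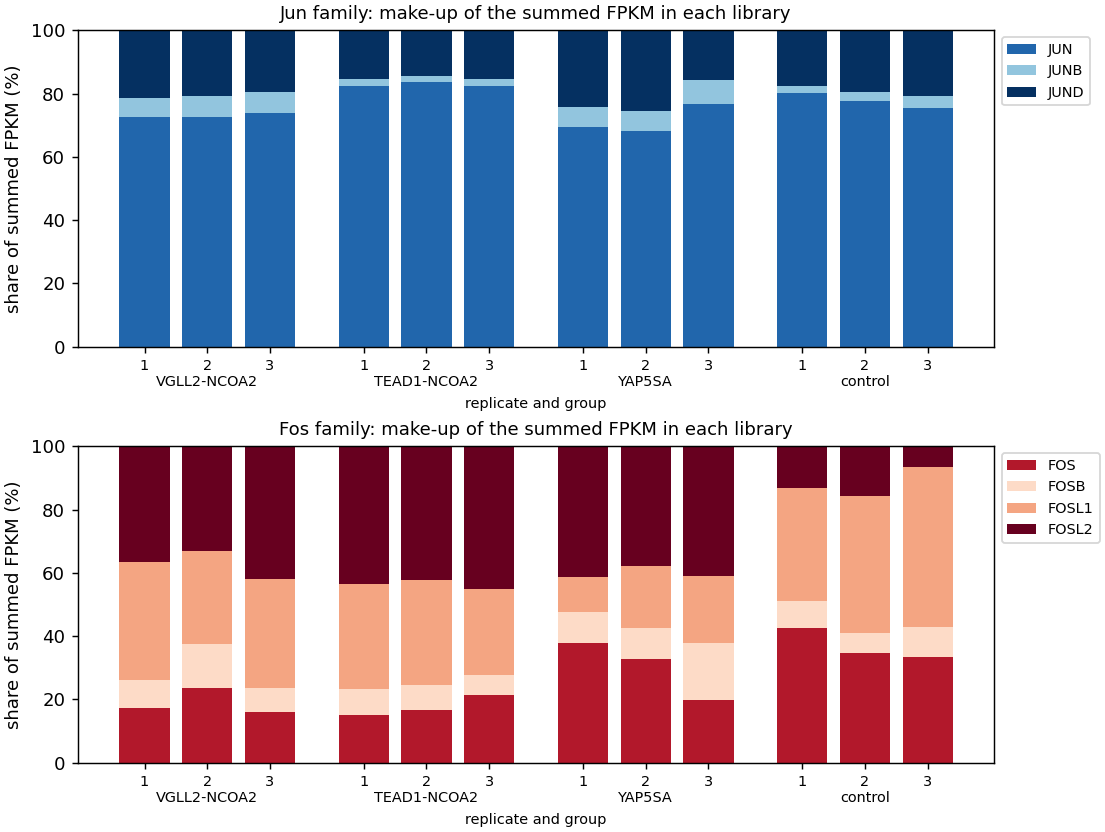
Share of the summed FPKM (%, vertical axes from 0 to 100) that each gene took in the Jun family (upper panel) and the Fos family (lower panel), 1 bar per library in the VGLL2-NCOA2, TEAD1-NCOA2, YAP5SA and control groups. FOSL2 takes 33.0% to 45.0% of the Fos sum in the plasmid libraries and 6.55% to 15.8% in the control libraries.

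The plasmids were also compared with each other. Between VGLL2-NCOA2 and TEAD1-NCOA2 cells 1 of 8 members was called, JUN, which was lower in VGLL2-NCOA2 cells (85.5 ± 1.61 FPKM in VGLL2-NCOA2 cells and 180 ± 21.5 FPKM in TEAD1-NCOA2 cells, log2 difference -1.06 ± 0.15, limma adjusted p = 0.00117). Of all tested genes, 1.97% were called in this comparison. Without TEAD1-NCOA2 replicate 2 the JUN difference was -0.97 and was not called. By the adjusted p alone 3 members differed, as did 19.9% of all genes, the others being JUNB (0.57 ± 0.11 higher in VGLL2-NCOA2 cells, limma adjusted p = 0.0066) and BATF3 (0.61 ± 0.17 higher in VGLL2-NCOA2 cells, limma adjusted p = 0.0299). JUN was thus lower and JUNB higher under VGLL2-NCOA2 than under TEAD1-NCOA2.

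Between VGLL2-NCOA2 and YAP5SA cells no member was called, while 4.09% of all tested genes were, and 2 members had an unadjusted limma p under 0.05. By limma's adjusted p alone 1 member differed, against 31.4% of all genes. This was FOSL1, which was higher in VGLL2-NCOA2 cells (0.51 ± 0.15 on the log2 scale, limma adjusted p = 0.0221). For JUN the difference was -0.24 with a 95% interval of -0.56 to 0.09, and for MAF it was 0.06 with an interval of -0.35 to 0.46. Between TEAD1-NCOA2 and YAP5SA cells no member was called either, against 5.90% of all genes, and 3 members passed both the unadjusted and the adjusted limma threshold, the adjusted one against 40.5% of all genes. JUNB was lower in TEAD1-NCOA2 cells (-0.88 ± 0.11, limma adjusted p = 0.000232), JUN was higher (0.82 ± 0.15, limma adjusted p = 0.00159) and FOS was lower (-0.50 ± 0.15, limma adjusted p = 0.025). For JUND no pair of plasmid groups passed limma's adjusted p, although every VGLL2-NCOA2 library lay below every TEAD1-NCOA2 library, with 95% intervals of -1.03 to 0.17 for VGLL2-NCOA2 against TEAD1-NCOA2, -0.91 to 0.29 for VGLL2-NCOA2 against YAP5SA and -0.49 to 0.71 for TEAD1-NCOA2 against YAP5SA. FOSL2 gave intervals of -0.33 to 0.35, -0.41 to 0.26 and -0.42 to 0.25 for the same pairs. NCOA2 was uneven among the YAP5SA libraries, and the part of this in the comparisons with YAP5SA was not tested.

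The order of JUN levels from low to high was therefore VGLL2-NCOA2, YAP5SA, TEAD1-NCOA2 and control, of which the first 2 did not differ beyond their spread. For JUNB the order was TEAD1-NCOA2, VGLL2-NCOA2, YAP5SA and control, with VGLL2-NCOA2 and YAP5SA not apart by limma's adjusted p (0.0635). For FOSL1 it was YAP5SA, TEAD1-NCOA2, VGLL2-NCOA2 and control, with neither step between neighbouring plasmids passing the test.

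Genes that act with AP-1 were counted from lists made by function, which were chosen with earlier results of these data known. Beside the counts of every list, 5.03%, 6.51% and 10.0% of all tested genes were called lower in VGLL2-NCOA2, TEAD1-NCOA2 and YAP5SA cells. The shares called higher were 6.30%, 2.89% and 10.4%. With lists this short, 1 call can lie near these shares. Among 10 tested Maf and CNC factors of 12, 1 was called lower and 0 higher in VGLL2-NCOA2 cells, 2 lower and 0 higher in TEAD1-NCOA2 cells, and 2 lower and 1 higher in YAP5SA cells, with median log2 differences of 0.00, -0.13 and -0.08 beside 0.01, -0.09 and 0.03 over all genes. MAFA, a large Maf protein of insulin-producing cells, fell in all 3 comparisons, to 2.54 FPKM in VGLL2-NCOA2 cells, 1.82 in TEAD1-NCOA2 cells and 2.01 in YAP5SA cells, against 14.0 in control cells. The small Maf genes MAFF, MAFG and MAFK, whose proteins lack an activation domain, had no call. NFE2L1, a stress factor that pairs with small Maf proteins, was called higher in YAP5SA cells (38.5 FPKM in YAP5SA cells and 18.5 FPKM in control cells), a call lost without control replicate 3 (log2 difference 0.88). It was at 24.1 FPKM in VGLL2-NCOA2 cells (0.39, limma adjusted p = 0.0357) and 24.8 FPKM in TEAD1-NCOA2 cells (0.43, limma adjusted p = 0.0268), with no call.

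Of 5 tested bZIP partners of 7, none was called in either fusion group and 2 were called lower in YAP5SA cells, the stress factors ATF3 (20.1 FPKM in YAP5SA cells and 51.2 FPKM in control cells) and ATF4 (189 FPKM in YAP5SA cells and 477 FPKM in control cells). ATF3 was at 31.1 FPKM in VGLL2-NCOA2 cells (log2 difference -0.69, limma adjusted p = 0.000846) and 30.5 FPKM in TEAD1-NCOA2 cells (-0.72, limma adjusted p = 0.000753). The list medians were -0.29, -0.37 and -0.88. Over the 39 other genes that the tables' own transcription factor column places in the bZIP class, of which 32 were tested, 2 were called lower and 1 higher in VGLL2-NCOA2 cells, 4 lower and 1 higher in TEAD1-NCOA2 cells, and 7 lower and 2 higher in YAP5SA cells. Their median log2 differences were -0.28, -0.26 and -0.26. This class holds most of the Maf and partner genes above. The calls outside those lists, named after their values were seen, were CREBZF (higher under all 3 plasmids, 38.8, 35.1 and 34.3 FPKM against 15.4 in control cells), DDIT3 (lower in VGLL2-NCOA2 and YAP5SA cells), DBP and CREB3L1 (lower in TEAD1-NCOA2 cells), and XBP1 and ATF6B (lower in YAP5SA cells). DDIT3, XBP1 and ATF6B act in the response to unfolded protein.

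Upstream of AP-1, the mitogen-activated protein (MAP) kinases gave 2 lower and 0 higher calls in VGLL2-NCOA2 cells, 1 lower and 0 higher in TEAD1-NCOA2 cells and 2 lower and 1 higher in YAP5SA cells, of 13 tested genes, with medians of 0.10, 0.18 and 0.11. MAP2K2, the kinase MEK2, fell under all plasmids (34.0 FPKM in VGLL2-NCOA2 cells, 45.5 in TEAD1-NCOA2 cells and 30.5 in YAP5SA cells, against 101 in control cells). MAPK3, the kinase ERK1, fell in VGLL2-NCOA2 cells (25.5 FPKM) and YAP5SA cells (24.6 FPKM), against 55.0 FPKM in control cells. In TEAD1-NCOA2 cells it was at 28.8 FPKM, a log2 difference of -0.91 (limma adjusted p = 2.1e-05) that was not called. MAP3K1, a kinase upstream of JNK, rose in YAP5SA cells (5.31 FPKM in YAP5SA cells and 1.98 FPKM in control cells). Its level was 3.95 FPKM in VGLL2-NCOA2 cells (log2 difference 0.73, limma adjusted p = 0.000318). It was 3.74 FPKM in TEAD1-NCOA2 cells (0.67, limma adjusted p = 0.000647), and neither difference was called. The kinases that phosphorylate Jun, MAPK8 and MAPK9, had no call. Of 10 factors that bind the FOS and JUN promoters, ELK4 alone was called, higher in VGLL2-NCOA2 cells (8.90 FPKM) and YAP5SA cells (11.1 FPKM), against 2.72 FPKM in control cells. In TEAD1-NCOA2 cells ELK4 was at 6.41 FPKM, a log2 difference of 0.99 (limma adjusted p = 9.7e-05), just under the threshold for a call. ELK4 is an ETS protein that acts with SRF. The medians of this list were 0.28, 0.19 and 0.53.

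Of 16 tested immediate early genes outside the AP-1 group, 3 were called lower and 1 higher in VGLL2-NCOA2 cells, 5 lower and 1 higher in TEAD1-NCOA2 cells, and 4 lower and 0 higher in YAP5SA cells. Of all tested genes, 5.03%, 6.51% and 10.0% were called lower and 6.30%, 2.89% and 10.4% higher in the same order of groups. The median log2 differences of the 16 genes were -0.53, -0.61 and -0.53. The genes called lower were RHOB and EGR1 in all 3 groups, KLF2 in VGLL2-NCOA2 cells, ARC in TEAD1-NCOA2 cells, and IER5 and KLF10 in TEAD1-NCOA2 and YAP5SA cells. Those called higher were CCNL1 in VGLL2-NCOA2 cells and BTG2 in TEAD1-NCOA2 cells. KLF2, KLF10, ARC, CCNL1 and BTG2 are named after their values were seen. RHOB, a small GTPase gene, fell to 69.7 FPKM in VGLL2-NCOA2 cells, 45.8 in TEAD1-NCOA2 cells and 48.7 in YAP5SA cells, against 247 in control cells. EGR1, a zinc finger factor of the serum response, was at 2.14, 2.39 and 2.42 FPKM in VGLL2-NCOA2 libraries, 2.71, 2.05 and 2.08 in TEAD1-NCOA2 libraries and 1.09, 0.917 and 6.87 in YAP5SA libraries, against 6.58, 5.78 and 12.3 in control libraries. Replicate 3 was the highest library in both the YAP5SA and the control group, and no EGR1 call held without control replicate 3 (log2 differences -1.11, -1.13 and -1.18). IER5, a serum response gene, fell in TEAD1-NCOA2 cells (16.8 FPKM) and YAP5SA cells (12.7 FPKM), against 35.4 FPKM in control cells, and the TEAD1-NCOA2 call was lost without control replicate 3 or without TEAD1-NCOA2 replicate 3 (-0.99 and -0.98). In VGLL2-NCOA2 cells it was at 18.4 FPKM, a log2 difference of -0.91 (limma adjusted p = 0.0204) that was not called.

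Among 11 tested MAP kinase feedback genes, 2, 1 and 1 were called lower and none higher in VGLL2-NCOA2, TEAD1-NCOA2 and YAP5SA cells. DUSP1, the phosphatase that inactivates p38 and JNK, fell to 19.0 FPKM in VGLL2-NCOA2 cells and 10.9 in YAP5SA cells, against 39.7 in control cells. In TEAD1-NCOA2 cells it was at 20.8 FPKM, a log2 difference of -0.92 (limma adjusted p = 0.000164) that was not called. The VGLL2-NCOA2 call was lost without control replicate 3 (-0.99). DUSP8, a phosphatase of the same kind, fell in VGLL2-NCOA2 cells (5.07 FPKM in VGLL2-NCOA2 cells and 13.0 FPKM in control cells). It was at 7.06 FPKM in TEAD1-NCOA2 cells (log2 difference -0.80, limma adjusted p = 4.1e-05). In YAP5SA cells it was at 8.23 FPKM (-0.60, limma adjusted p = 0.000114), and neither difference was called. The TEAD1-NCOA2 call was DUSP5, named after its value was seen. The list medians were -0.42, -0.46 and -0.50. Of 5 tested regulators of Jun and Fos proteins, FBXW7, a ubiquitin ligase subunit that targets JUN, was called higher in TEAD1-NCOA2 cells (4.95 FPKM in TEAD1-NCOA2 cells and 1.93 FPKM in control cells), named here after its value was seen. MEN1, which encodes the JUND partner menin, was at 23.9, 25.0 and 23.8 FPKM under the plasmids, against 32.8 in control cells, with no call. The medians of these regulators were -0.35, -0.08 and -0.19.

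Of 23 known AP-1 target genes only 11 passed the filter, and the matrix metalloproteinase genes MMP1, MMP3, MMP9, MMP10 and MMP13 did not. Of those tested, 2 were called lower and 1 higher in VGLL2-NCOA2 cells, 4 lower and 0 higher in TEAD1-NCOA2 cells, and 2 lower and 1 higher in YAP5SA cells, and the median log2 differences were -0.43, -0.76 and -0.19. TGFB1, a cytokine gene with AP-1 sites in its promoter, fell to 10.98 FPKM in VGLL2-NCOA2 cells, 7.74 in TEAD1-NCOA2 cells and 6.67 in YAP5SA cells, against 28.0 in control cells. VIM, the intermediate filament vimentin, fell to 32.8, 69.2 and 40.3 FPKM under the same plasmids, against 143 in control cells, though its TEAD1-NCOA2 call was lost without control replicate 3 (-0.96), without control replicate 2 (-0.99) or without TEAD1-NCOA2 replicate 1 (-0.96). HBEGF, an EGF receptor ligand, rose in VGLL2-NCOA2 cells (6.47 FPKM in VGLL2-NCOA2 cells and 1.88 FPKM in control cells). It was at 3.02 FPKM in TEAD1-NCOA2 cells (log2 difference 0.52, limma adjusted p = 0.0286) and 2.41 FPKM in YAP5SA cells (0.28, limma adjusted p = 0.174), with no call. The other calls were CCND1 and IL11, lower in TEAD1-NCOA2 cells, and LIF, higher in YAP5SA cells, named after their values were seen.

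VIM was also the gene whose pattern lay closest to that of JUN. Over the 12 libraries, the root mean square distance between the centred log2(FPKM + 1) profiles of VIM and JUN was 0.22, beside a spread of JUN around its own mean of 0.88, among 8393 protein-coding genes with a mean of at least 5 FPKM in a group. The next was CTF1, the cytokine cardiotrophin 1, at 0.25. For JUND the nearest genes were ZNF703 and HMX1 (distances 0.19 and 0.20), for JUNB they were RARG and PPP1R13L (0.13 for both), and for MAF they were GLA and UNC93B1 (0.15 for both). FOSL2 was followed most closely by TOPBP1 and MEF2A (0.09 and 0.10), FOS by HHLA3 and TUT1 (0.14 for both), FOSL1 by VPS16 and USB1 (0.10 and 0.13), and BATF3 by METTL23 and MNX1 (0.14 for both). These distances are descriptions, and they mostly follow the gap between the plasmid and control libraries.

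The size of these differences depended on how the libraries were scaled. FPKM sums over all genes were 256150 to 261017 in VGLL2-NCOA2 libraries, 253219 to 303968 in TEAD1-NCOA2 libraries and 190861 to 252240 in YAP5SA libraries, against 352968 to 450095 in control libraries, and how the authors scaled the tables is unknown. On the TPM scale, where each library sums to the same total, the median of all genes moved to 0.57 in VGLL2-NCOA2 cells, 0.35 in TEAD1-NCOA2 cells and 0.77 in YAP5SA cells. The JUN differences on that scale were -1.62, -0.65 and -1.19, which relative to the shifted medians are -2.19, -1.01 and -1.96. MAF (-0.62 in VGLL2-NCOA2 cells and -0.50 in YAP5SA cells), JUN and BATF3 (-0.96) in TEAD1-NCOA2 cells and JUND in YAP5SA cells (-0.92) lost their calls there. FOSL2 was called higher in all 3 comparisons on the TPM scale (1.55, 1.46 and 1.83, or 0.98, 1.10 and 1.06 relative to the medians), and also with a pseudocount of 0.1 FPKM (1.30, 1.29 and 1.40). JUNB and FOS in YAP5SA cells turned to 0.12 and 0.16 on the TPM scale, which relative to the median are -0.65 and -0.61.

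Quantile normalization gave JUN -1.49 in VGLL2-NCOA2 cells, and JUN was not called under it in TEAD1-NCOA2 cells (-0.56) and YAP5SA cells (-0.95). Across 12016 protein-coding genes, log2 differences from control went with GC content (Spearman's rho of -0.48, -0.50 and -0.34 for VGLL2-NCOA2, TEAD1-NCOA2 and YAP5SA) and with gene length (0.48, 0.47 and 0.44), as descriptions over genes that are not independent replicates. The GC content of JUND was 69.7% and that of JUNB 64.9%, beside a median of 48.6% over these genes. After a correction for length and GC content, JUN (-0.70), JUNB (-0.83) and JUND (-0.74) were no longer called in TEAD1-NCOA2 cells, whereas JUN and JUND kept their calls in VGLL2-NCOA2 and YAP5SA cells. MAF, with a GC content of 46.6%, was at -1.34, -1.51 and -1.39 after the correction.

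**Figure D4:**
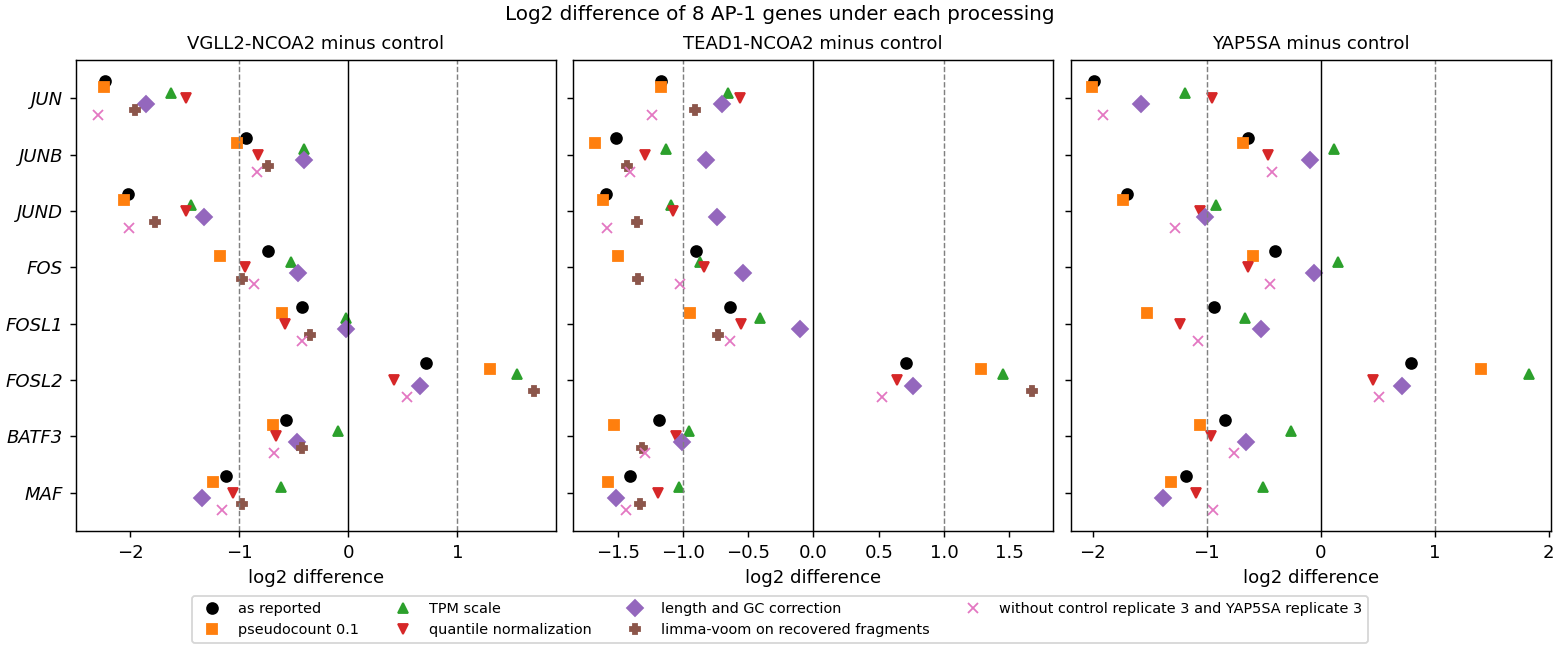
Log2 difference, plasmid minus control (horizontal axes), of the 8 tested AP-1 genes for VGLL2-NCOA2, TEAD1-NCOA2 and YAP5SA under 7 ways of processing, with dashed lines at a difference of 1 in either direction. Fragments could not be recovered for YAP5SA, so the limma-voom points are in the left and middle panels. JUN, JUND and MAF stay below 0 in every panel, and JUNB and FOS cross 0 on the TPM scale in the YAP5SA panel.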

How the data were processed

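HEK293T cells were transfected with Lipofectamine and total RNA was purified on columns. SMARTER mRNA-Seq libraries were sequenced as read pairs, and GEO's labels gave the groups. The study handled its triplicates independently. Whether they were separate transfections is not stated, so p-values reflect only the spread between these libraries, and may be technical in part.

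The authors deposited FPKM values in 4 tables, 1 per group, which may have been normalized separately. GRCm38 and mm10, which are mouse assemblies, appear in the submitters' processing notes, whereas the gene coordinates are human: 58735 of 58735 matched GENCODE release 29 (GRCh38). The aligner, counter, strand setting and scaling were not given in the sources used here. FPKM times gene length gave whole multiples of 1 step for 100% of low values (up to 20 fragments, tolerance 0.05) in 9 libraries, so fragments were recovered there, but not for YAP5SA.

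Testing covered the 15954 genes that reached 1 FPKM in 3 or more of 12 libraries, as log2(FPKM + 1) in limma 3.58.1 (lmFit, eBayes with trend, group means over all libraries, 2-sided, Benjamini-Hochberg within each of 6 comparisons). R 4.3.3, Python 3.11.15 and pandas 2.3.3 were used. The fit was tested on simulated data. The unit is FPKM, so a count test that the design had foreseen for counts was not the main one. Alternatives were another pseudocount, filter or scaling, a length and GC correction, a replicate block, the compared groups only, limma-voom on fragments, and libraries left out. Members and lists were chosen with earlier results of these data known. Named besides the 9 members were up to 3 called genes per list with the largest difference, a mean of at least 5 FPKM and groups that did not overlap in the comparison that chose them, or the most abundant gene of the list, and the 2 genes nearest to each member. Promoter sequences are from RefSeq, and 7 of 9 members matched. Values of some single genes that the rule names are not reported here.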

Additional observations from a re-analysis of the deposited data

How the results depend on the processing

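The counts of called members under each comparison with control were 3, 5 and 3 for VGLL2-NCOA2, TEAD1-NCOA2 and YAP5SA. They were 6 for VGLL2-NCOA2 and 6 for YAP5SA with a pseudocount of 0.1 FPKM, and 2 for TEAD1-NCOA2 after the length and GC correction. For VGLL2-NCOA2 against TEAD1-NCOA2 the 1 call became 0 on the TPM scale and 0 under quantile normalization, and 0 to 1 when single libraries were left out. For TEAD1-NCOA2 against YAP5SA the TPM scale gave 2 calls in place of 0, JUNB (-1.25) and FOS (-1.03). Over all genes, the main counts for the 6 comparisons were 1807, 1500, 3264, 315, 653 and 941, in the order VGLL2-NCOA2, TEAD1-NCOA2 and YAP5SA against control, VGLL2-NCOA2 against TEAD1-NCOA2, VGLL2-NCOA2 against YAP5SA and TEAD1-NCOA2 against YAP5SA. With a pseudocount of 0.1 FPKM they were 3133, 2800, 796, 1192 and 1893 for all but YAP5SA against control, where the count stayed within 1.5 times. With a minimum of 5 FPKM, which tests fewer genes, they were 1174, 972, 2077, 180, 373 and 469. On the TPM scale they were 4629 (4424 higher and 205 lower, against 1005 and 802), 3145 (2575 and 570, against 461 and 1039), 6633 (6201 and 432, against 1667 and 1597), 798 (729 and 69, against 256 and 59), 1276 (340 and 936, against 325 and 328) and 2593 (208 and 2385, against 275 and 666). With limma-voom they were 3799 (3195 higher and 604 lower), 2939 (1890 and 1049) and 963 (863 and 100) for the comparisons without YAP5SA. With the length and GC correction they were 1151 (650 and 501) and 935 (449 and 486) for the fusions against control. The cause of these shifts beyond the scaling itself was not tested.

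Signs turned in the following values. On the TPM scale JUNB and FOS in YAP5SA cells were at 0.12 and 0.16, ATF4 at 0.32 and 0.14 in the fusion groups, MEN1 at 0.15, 0.12 and 0.34 in the 3 groups, DUSP8 at 0.15 in YAP5SA cells, MAF at -0.12 for VGLL2-NCOA2 against YAP5SA and JUND at -0.17 for TEAD1-NCOA2 against YAP5SA. Under quantile normalization ATF4 was at 0.55 and 0.30 in the fusion groups, MEN1 at 0.0073 in YAP5SA cells, FOS at -0.10, FOSL1 at -0.018 and FOSL2 at -0.22 for VGLL2-NCOA2 against TEAD1-NCOA2, and JUND at -0.014 and FOSL2 at 0.18 for TEAD1-NCOA2 against YAP5SA. With the length and GC correction ATF4 was at 0.078 and 0.094 and MEN1 at 0.10 in TEAD1-NCOA2 cells, and FOSL2 at -0.11 for VGLL2-NCOA2 against TEAD1-NCOA2 and 0.056 for TEAD1-NCOA2 against YAP5SA. Without control replicate 3 and YAP5SA replicate 3, FOSL2 was at 0.029 and MAF at -0.22 for VGLL2-NCOA2 against YAP5SA, and JUND at -0.30 and FOSL2 at 0.020 for TEAD1-NCOA2 against YAP5SA. With single libraries left out FOSL2 ran between -0.038 and 0.061 for VGLL2-NCOA2 against TEAD1-NCOA2, -0.13 and 0.029 for VGLL2-NCOA2 against YAP5SA and -0.14 and 0.020 for TEAD1-NCOA2 against YAP5SA, MAF between -0.22 and 0.23 for VGLL2-NCOA2 against YAP5SA, and JUND between -0.30 and 0.33 for TEAD1-NCOA2 against YAP5SA. None of these were called before.

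Deviations of same-numbered libraries correlated at -0.05 to 0.27 and passed 0.1 in 3 of 18 pairs. YAP5SA and control gave 0.0086, 0.27 and 0.20 for replicates 1, 2 and 3. With a replicate block the members called stayed at 3, 5 and 3 against control and at 1, 0 and 0 between plasmids, and the counts over all genes were 1826, 1518, 3286, 318, 660 and 943. With the replicate block and the length and GC correction together, 1155 and 942 of all genes were called in VGLL2-NCOA2 and TEAD1-NCOA2 cells against control. For TEAD1-NCOA2, 2 members were called. The turned signs were those named for that correction (ATF4 0.078 and 0.094, MEN1 0.10, FOSL2 -0.11 and 0.056). Across the alternatives other than single libraries left out, 426 of the member values kept direction and call, 18 lost and 19 gained a call and 17 changed sign. Calls against control not given in the report were lost by MAF in VGLL2-NCOA2 cells (-0.97) and JUN in TEAD1-NCOA2 cells (-0.91) with limma-voom, and gained by FOS in TEAD1-NCOA2 cells (-1.34) with limma-voom, by FOSL1 in YAP5SA cells (-1.24) under quantile normalization, and with a pseudocount of 0.1 FPKM by JUNB and FOS in VGLL2-NCOA2 cells (-1.02 and -1.17), FOS in TEAD1-NCOA2 cells (-1.496) and FOSL1 and BATF3 in YAP5SA cells (-1.52 and -1.06).

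Of the values of other single genes, 472 kept direction and call, 70 lost and 13 gained a call and 15 changed sign. On the TPM scale calls were lost in VGLL2-NCOA2 cells by MAP2K2 (-0.94), MAPK3 (-0.49), DUSP1 (-0.45), DUSP8 (-0.72), TGFB1 (-0.72) and EGR1 (-1.06), in TEAD1-NCOA2 cells by MAP2K2 (-0.63), IER5 (-0.55), VIM (-0.52) and EGR1 (-1.17), and in YAP5SA cells by MAP2K2 (-0.91), MAPK3 (-0.35), ATF3 (-0.52), ATF4 (-0.55), IER5 (-0.79) and EGR1 (-1.07). Under quantile normalization they were lost by MAP2K2 (-0.998), MAPK3 (-0.66) and DUSP1 (-0.68) in VGLL2-NCOA2 cells, MAP2K2 (-0.65), IER5 (-0.68), VIM (-0.51) and EGR1 (-1.27) in TEAD1-NCOA2 cells, and MAPK3 (-0.61), MAP3K1 (0.98), ATF3 (-0.83) and ATF4 (-0.18) in YAP5SA cells. The length and GC correction, with or without the block, ended those of MAPK3 (-0.59), ELK4 (0.84), DUSP1 (-0.74), DUSP8 (-0.71), TGFB1 (-0.71) and EGR1 (-1.06) in VGLL2-NCOA2 cells, MAP2K2 (-0.69), IER5 (-0.81), VIM (-0.97) and EGR1 (-0.99) in TEAD1-NCOA2 cells, and MAPK3 (-0.61), MAP3K1 (0.73), ATF4 (-0.95) and EGR1 (-1.08) in YAP5SA cells. Limma-voom ended those of MAPK3 (-0.82) and DUSP1 (-0.78) in VGLL2-NCOA2 cells and MAP2K2 (-0.88), IER5 (-0.82) and VIM (-0.78) in TEAD1-NCOA2 cells. FOS, FOSB, FOSL1, FOSL2 and BATF3 rest on few fragments, which limits what could be detected.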
